A study of Homo sapiens with 16 samples.

Results

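Human cells take up amino acids through solute carriers of several families, and 10 of these transporters are described here: SLC7A1, SLC7A3, SLC7A5, SLC7A8, SLC7A11, SLC3A2, SLC38A2, SLC38A5, SLC1A5 and SLC16A10. They are 10 of the 60675 gene identifiers in the count table, matched by gene symbol, and all 10 passed the filter on low counts. They were chosen by name with their values in these libraries known, for each knockdown set against the controls and for SALL4 set against VRTN. Values of the 10 in those contrasts are therefore a description and carry no test.

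Poly(A) RNA came from the human embryonic stem cell line H9, an established line that here carries EGFP under the REX1 promoter, grown without feeder cells on Matrigel in mTeSR1 medium. Pooled siRNAs at 30 to 50 nM targeted SALL4, a zinc finger transcription factor, and VRTN, with harvest at 48 h, and DSCC1, a sister chromatid cohesion factor, and SEPHS1, a selenophosphate synthetase homologue, with harvest at 72 h, in 3 replicates each. The controls were 2 libraries of a Control siRNA and 2 of a Luciferase siRNA, which targets Renilla luciferase, and the labels give no harvest time for either. Harvest time therefore cannot be told apart from the siRNA target where the 48 h and 72 h knockdowns differ, or where a knockdown differs from the controls. Enzymatically prepared pools from a single supplier were used for SALL4, DSCC1, SEPHS1 and luciferase, the VRTN siRNA came from another supplier, and the source of the Control siRNA is not given in the sources used here.

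SLC3A2 encodes the heavy chain CD98, a surface glycoprotein that carries partner light chains to the plasma membrane. Among these light chains, SLC7A5 (LAT1) and SLC7A8 (LAT2) exchange large neutral amino acids such as leucine, and SLC7A11 (xCT) exchanges cystine for glutamate. SLC7A1 (CAT1) and SLC7A3 (CAT3) carry arginine and lysine without a heavy chain. SLC38A2 (SNAT2) and SLC38A5 (SNAT5) take up glutamine and other small neutral amino acids with sodium, SLC1A5 (ASCT2) exchanges glutamine and other neutral amino acids, and SLC16A10 (TAT1) lets aromatic amino acids cross in either direction. Leucine and arginine inside the cell are sensed by the mTORC1 pathway, and shortage of amino acids raises transcription of several transporter genes through ATF4.

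Promoter sequence is shown for the members whose start sites carry one of 2 short motifs known from the control of transporter genes: the E-box CACGTG, which MYC and related factors bind, and the C/EBP-ATF response element TGATGNAA, which ATF4 binds. RefSeq promoter windows, 250 bases before to 50 bases after each annotated start in GRCh38.p14, were searched on both strands. The motifs share no overlapping letters in these windows. Of the 10 members, 8 had an entry, with 15 windows in all, and SLC7A3 and SLC7A11 had none. An E-box stood in windows of 4 of the 8 members and of 8.77% of all 27305 genes with a window, or in 2548 of 35116 windows (7.26%). The response element stood in windows of 3 of the 8 and of 4.46% of all genes, or in 1270 windows (3.62%). A match is a description of letters, and its absence says only that the letters are not in that window. Capitals mark the motif, and each stretch is printed 5′ to 3′ along the gene's strand.
SLC7A5 E-box chr16:87869458-87869757 (minus strand): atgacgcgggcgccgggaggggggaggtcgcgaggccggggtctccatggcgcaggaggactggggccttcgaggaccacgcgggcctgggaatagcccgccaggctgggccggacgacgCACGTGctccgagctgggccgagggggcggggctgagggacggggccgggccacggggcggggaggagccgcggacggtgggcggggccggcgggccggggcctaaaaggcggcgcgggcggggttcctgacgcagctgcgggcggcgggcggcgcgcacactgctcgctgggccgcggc
SLC7A8 E-box chr14:23154475-23154562 (minus strand): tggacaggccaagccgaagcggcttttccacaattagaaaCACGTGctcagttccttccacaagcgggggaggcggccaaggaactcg
SLC38A5 E-box chrX:48470419-48470506 (minus strand): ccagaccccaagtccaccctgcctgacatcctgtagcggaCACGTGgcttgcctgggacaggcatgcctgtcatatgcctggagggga
SLC1A5 E-box chr19:46787296-46787383 (minus strand): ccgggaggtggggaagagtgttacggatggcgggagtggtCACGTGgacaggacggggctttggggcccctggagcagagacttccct
SLC1A5 response element chr19:46784864-46784951 (minus strand): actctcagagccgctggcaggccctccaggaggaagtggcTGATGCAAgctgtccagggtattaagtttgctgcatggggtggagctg
SLC7A1 response element chr13:29595639-29595721 (minus strand): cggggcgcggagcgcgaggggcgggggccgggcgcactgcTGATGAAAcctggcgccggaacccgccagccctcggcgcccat
SLC3A2 response element chr11:62881696-62881748 (plus strand): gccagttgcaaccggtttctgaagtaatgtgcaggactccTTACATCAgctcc

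Counting from the start as position 0, the first base of the E-box lay at position -130 for SLC7A5, -129 for SLC7A8, -206 for SLC38A5 and -50 for SLC1A5. For SLC7A8 it belonged to 1 of 4 annotated starts and for SLC1A5 to 1 of 3. The response element began at position 7 for SLC7A1 and 37 for SLC3A2, where it was read on the opposite strand, and at -97 for another start of SLC1A5. SLC38A2, SLC16A10 and the remaining windows of SLC7A8, SLC3A2 and SLC1A5 held neither set of letters.

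Library totals ran from 18597262 to 28662389 counts, and mitochondrial mRNAs took 24.6 to 42.8% of them. Each targeted transcript was lower in all 3 of its own libraries than in all 4 controls, with SALL4 at 77.9%, VRTN at 14.9%, DSCC1 at 20.5% and SEPHS1 at 14.9% of the control level. The SEPHS1 transcript was also low in the SALL4 libraries, at 175, 197 and 249 CPM (counts scaled to library size) against 381 to 440.5 CPM in the controls. The DSCC1 transcript, at 0.601 to 0.939 CPM in DSCC1 libraries, was below every control (3.30 to 5.16 CPM) in other knockdowns too. It had 1.88 to 2.88 CPM in VRTN and 0.245 to 3.27 CPM in SEPHS1 libraries. For the SALL4 transcript, SALL4 replicate 3 at 234.9 CPM was level with the lowest SEPHS1 library at 234.2 CPM. SALL4 replicate 3 differed more from replicates 1 and 2 than those did from each other. Over genes, the chi-square per degree of freedom was 56.5 and 67.6 for the pairs with replicate 3 and 31.6 for the pair without it. Without that library 924 genes in place of 590 were called in the SALL4 comparison, a call being an adjusted p under 0.05 from edgeR's quasi-likelihood test, and without replicate 1 or replicate 2 the count was 275 or 291. The pluripotency markers POU5F1, NANOG, SOX2, LIN28A, DPPA4, TDGF1 and DNMT3B passed the filter. ZFP42, the gene of the REX1 reporter, is listed at 0 in all 16 libraries. The labels call the replicates biological, and in bulk RNA fewer cells of a type and less RNA per cell cannot be told apart.

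In the control cells the transporters fell into an ordered series of levels once counts were divided by exon length. SLC7A5 came highest at 280.4 ± 39.98 CPM per kb of exon (SD, n = 4 here and for the members that follow), above 99.4% of the 19626 tested genes with a length. SLC7A8 followed at 108 ± 6.95 CPM per kb, its range clear of that of SLC7A5 and of the next gene. SLC1A5 at 70.3 ± 11.5, SLC7A3 at 48.4 ± 16.7 and SLC3A2 at 42.2 ± 6.25 CPM per kb formed a middle group in which each range overlapped that of the next. Below them came SLC7A1 at 22.2 ± 1.12, SLC38A5 at 14.2 ± 1.90 and SLC38A2 at 8.78 ± 1.998 CPM per kb, with no overlap between neighbours. The cystine exchanger SLC7A11, at 0.538 ± 0.138 CPM per kb, and the aromatic amino acid carrier SLC16A10, at 0.243 ± 0.0451 CPM per kb, stood far below the rest, above 36.3% and 23.8% of tested genes. Of the transporters outside the 10, the highest were the lysosomal cystine carrier CTNS at 11.3 CPM per kb, the glutamine carrier SLC38A1 at 10.7 and SLC38A7 at 9.94. These fell between SLC38A5 and SLC38A2.

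**Figure D1:**
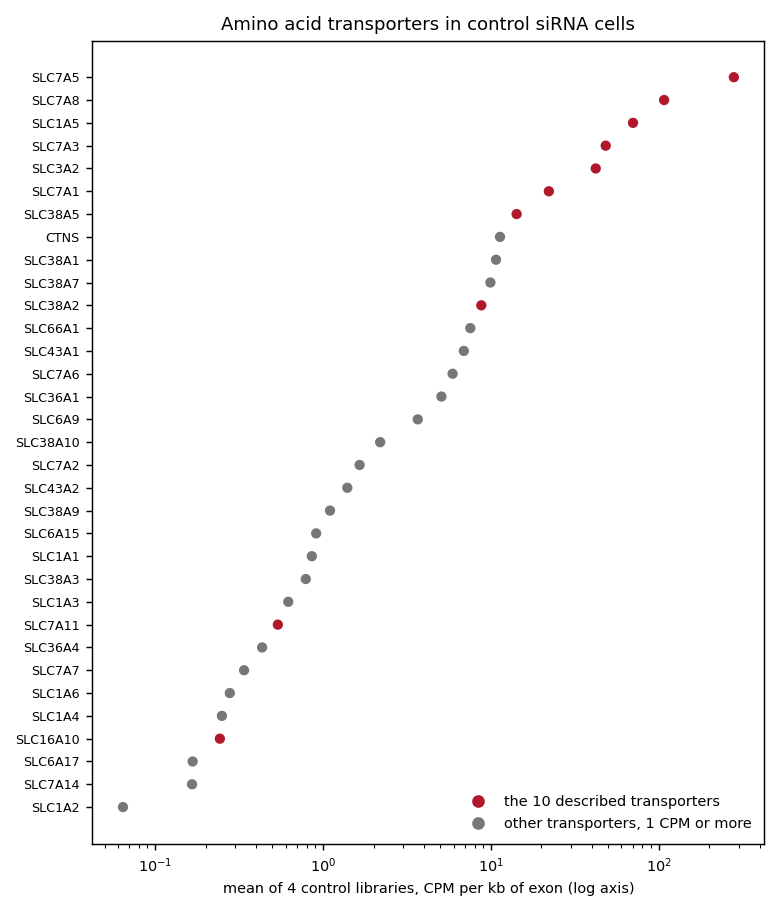
Mean level of each amino acid transporter over the 4 control libraries, in CPM per kb of exon on a log axis, with the 10 described transporters in red and other tested transporters of at least 1 CPM in grey. SLC7A5 tops the order at 280.4 CPM per kb, 7 of the 10 lie above CTNS at 11.3, and SLC7A11 and SLC16A10 lie near the bottom.

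The order changed little between groups. SLC7A5 ranked 1 and SLC7A8 ranked 2 in all 6 groups. SLC7A3 ranked 3 in the SALL4 and SEPHS1 libraries and 4 in the others. SLC38A2 ranked 6 in the SALL4 libraries at 19.1 CPM per kb and 7 in the VRTN libraries at 11.7, against 8 in the controls. SLC16A10 ranked 9 in the SALL4 libraries at 1.42 CPM per kb and in the VRTN libraries at 0.894, above SLC7A11 in both, and 10 in the controls.

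The heavy chain SLC3A2 and the light chain SLC7A5 were low together in the VRTN libraries. SLC7A5 (chr16:87830023-87869488, minus strand, GRCh38) had 1379, 1269 and 976 CPM in SALL4 libraries, 563, 547.5 and 756 CPM in VRTN libraries, 1584, 1585 and 1733 CPM in DSCC1 libraries and 1085, 1086 and 1099 CPM in SEPHS1 libraries, against 1161 and 1535 CPM in Control and 1177 and 1448 CPM in Luciferase libraries. All VRTN and all SEPHS1 libraries lay below the lowest control and all DSCC1 libraries above the highest, while SALL4 libraries overlapped the controls. Its log2 fold change was -1.10 (SE 0.12) in VRTN libraries, or 46.8% of the control level, and -0.14 (SE 0.12) in SALL4, 0.30 (SE 0.12) in DSCC1 and -0.29 (SE 0.12) in SEPHS1 libraries.

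SLC3A2 (chr11:62856102-62888875, plus strand) had 256, 279 and 241 CPM in SALL4 libraries, 145, 137 and 174 CPM in VRTN libraries, 268, 270.3 and 278 CPM in DSCC1 libraries and 210.0, 215 and 223 CPM in SEPHS1 libraries, against 213 and 258 CPM in Control and 179 and 222 CPM in Luciferase libraries. The VRTN libraries again lay below every control, the DSCC1 libraries above every control, and the SALL4 and SEPHS1 libraries within or across the control range. On the log2 scale SLC3A2 stood at -0.52 (SE 0.11) against the controls in VRTN and 0.25 (SE 0.11) in SALL4 libraries, 0.32 (SE 0.11) in DSCC1 and -0.01 (SE 0.11) in SEPHS1 libraries. This was 69.9% of the control level in VRTN libraries, nearer to it than SLC7A5.

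The other leucine carrier did not follow SLC7A5 in the SALL4 libraries. SLC7A8 (chr14:23125295-23183674, minus strand) had 1437, 1188 and 740.0 CPM in SALL4 libraries, 464, 500.4 and 334 CPM in VRTN libraries, 659.9, 629.5 and 737 CPM in DSCC1 libraries and 510.3, 548 and 559 CPM in SEPHS1 libraries, against 654.5 and 697 CPM in Control and 598 and 632 CPM in Luciferase libraries. SALL4 libraries stood above all controls, replicate 3 by the least, and VRTN and SEPHS1 libraries stood below all controls. Its log2 fold change was 0.80 (SE 0.14) in SALL4 libraries, or 1.74-fold, and -0.58 (SE 0.14) in VRTN libraries. It was 1.04 without SALL4 replicate 3 and 0.58 without SALL4 replicate 1.

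SLC7A11 (chr4:138164097-138242349, minus strand) was near the bottom of the order in every group. It had 4.46, 4.20 and 1.70 CPM in SALL4 libraries, 4.57, 4.36 and 6.17 CPM in VRTN libraries, 4.81, 5.43 and 5.78 CPM in DSCC1 libraries and 3.23, 6.10 and 2.28 CPM in SEPHS1 libraries, against 4.29 and 6.57 CPM in Control and 3.82 and 6.08 CPM in Luciferase libraries. Every knockdown group overlapped the controls. The log2 fold changes lay between -0.58 (SE 0.43, SALL4) and 0.04 (SE 0.42, DSCC1), and no difference was detectable at this depth, 39 to 193 counts a library. An antisense transcript, SLC7A11-AS1, overlaps its exons and held 2.11% as many counts, and without the strand setting reads of both cannot be told apart.

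**Figure D2:**
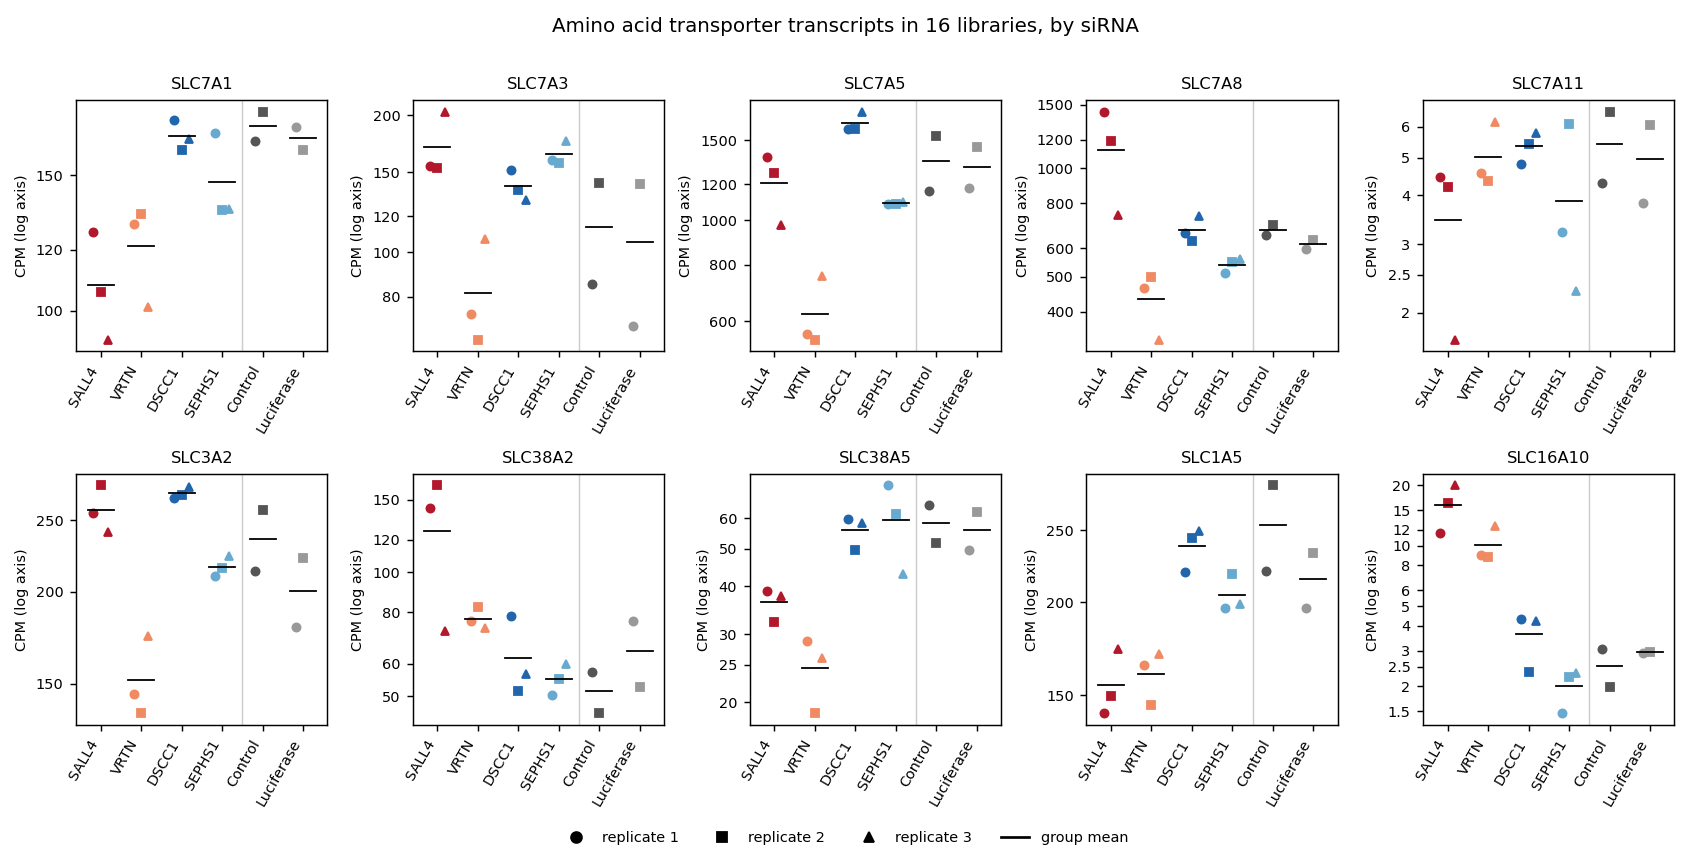
Level of each of the 10 transporters in each of 16 libraries, in CPM on a log axis, with knockdown groups left of the grey line and the Control and Luciferase groups right of it; points are libraries, shapes are replicate numbers and black bars are group means. SLC7A5 and SLC3A2 sit lowest in VRTN libraries, SLC7A8 highest in SALL4 libraries, SLC38A2 highest in SALL4 replicates 1 and 2 but not in replicate 3, and SLC16A10 above all controls in both.

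The arginine carriers stood on opposite sides of the controls in the SALL4 libraries. SLC7A1 (chr13:29509410-29595688, minus strand) had 126.5, 106 and 91.7 CPM in SALL4 libraries, 129.7, 133 and 101 CPM in VRTN libraries, 177, 162 and 167 CPM in DSCC1 libraries and 170.2, 135 and 135 CPM in SEPHS1 libraries, against 166 and 181 CPM in Control and 173 and 162 CPM in Luciferase libraries. SALL4 and VRTN libraries lay below all controls, and DSCC1 and SEPHS1 libraries overlapped them. The log2 fold change was -0.66 (SE 0.13) in SALL4 libraries and -0.49 (SE 0.13) in VRTN libraries.

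SLC7A3 (chrX:70925582-70931125, minus strand) had 155, 153 and 203 CPM in SALL4 libraries, 73.2, 64.4 and 107 CPM in VRTN libraries, 152, 137 and 130.3 CPM in DSCC1 libraries and 159.7, 157 and 175 CPM in SEPHS1 libraries, against 85.5 and 142 CPM in Control and 69.0 and 141 CPM in Luciferase libraries. SALL4 and SEPHS1 libraries lay above all controls, and VRTN and DSCC1 libraries overlapped them. The controls themselves were split by replicate number, with replicate 2 far above replicate 1 under both siRNAs. The log2 fold change was 0.64 (SE 0.18) in SALL4, 0.58 (SE 0.18) in SEPHS1, 0.35 (SE 0.18) in DSCC1 and -0.42 (SE 0.18) in VRTN libraries. Over the alternatives tried, the SALL4 value ran between 0.27 and 1.15.

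The sodium-coupled carriers had log2 fold changes of opposite sign in the SALL4 libraries, positive for SLC38A2, whose range overlapped the controls, and negative for SLC38A5. SLC38A2 (chr12:46358189-46372867, minus strand) had 143, 163 and 72.0 CPM in SALL4 libraries, 76.2, 82.1 and 73.2 CPM in VRTN libraries, 78.2, 51.4 and 56.5 CPM in DSCC1 libraries and 50.2, 55.1 and 59.9 CPM in SEPHS1 libraries, against 57.3 and 45.5 CPM in Control and 76.3 and 52.7 CPM in Luciferase libraries. SALL4 replicates 1 and 2 stood well above every control, and replicate 3 stood below the highest control. For SLC38A2 the log2 fold change was 1.13 (SE 0.18) in SALL4 libraries, 1.42 without replicate 3, and 0.42 (SE 0.18) in VRTN libraries, which overlapped the controls.

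SLC38A5 (chrX:48458537-48470256, minus strand) had 38.8, 32.3 and 37.8 CPM in SALL4 libraries, 28.8, 18.7 and 26.0 CPM in VRTN libraries, 59.6, 49.6 and 58.4 CPM in DSCC1 libraries and 73.0, 61.7 and 43.1 CPM in SEPHS1 libraries, against 64.9 and 51.7 CPM in Control and 49.6 and 62.4 CPM in Luciferase libraries. SALL4 and VRTN libraries lay below every control, the VRTN libraries below the SALL4 libraries too, and the 72 h knockdowns overlapped the controls. For SLC38A5 the log2 fold change was -1.22 (SE 0.17) in VRTN libraries, or 42.9% of the control level, and -0.66 (SE 0.17) in SALL4 libraries.

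The glutamine exchanger SLC1A5 (chr19:46774883-46788594, minus strand) had 142, 149.5 and 173 CPM in SALL4 libraries, 164.5, 146 and 170.2 CPM in VRTN libraries, 219.8, 244 and 249 CPM in DSCC1 libraries and 196, 218 and 199 CPM in SEPHS1 libraries, against 220.4 and 287 CPM in Control and 196.5 and 233 CPM in Luciferase libraries. The 6 libraries of the 48 h knockdowns lay below every control and those of the 72 h knockdowns overlapped them. The log2 fold change was -0.59 (SE 0.12) in SALL4 and -0.54 (SE 0.12) in VRTN libraries.

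SLC16A10 (chr6:111087503-111231194, plus strand) had the largest distance from the controls among the 10. It had 11.6, 16.2 and 19.9 CPM in SALL4 libraries, 8.93, 8.77 and 12.5 CPM in VRTN libraries, 4.30, 2.35 and 4.21 CPM in DSCC1 libraries and 1.47, 2.22 and 2.34 CPM in SEPHS1 libraries, against 3.06 and 1.97 CPM in Control and 2.93 and 2.96 CPM in Luciferase libraries. All 6 libraries of the 48 h knockdowns stood far above the controls, and the 72 h knockdowns overlapped them. Harvest time and siRNA target cannot be told apart in this split. SLC7A1, SLC38A5 and SLC1A5 split in the same way, with the 48 h knockdowns below the controls. For SLC16A10 this gave a log2 fold change of 2.55 (SE 0.34) in SALL4 libraries, or 5.84-fold, and 1.88 (SE 0.34) in VRTN libraries, or 3.69-fold, on 30 to 468 counts a library.

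**Figure D3:**
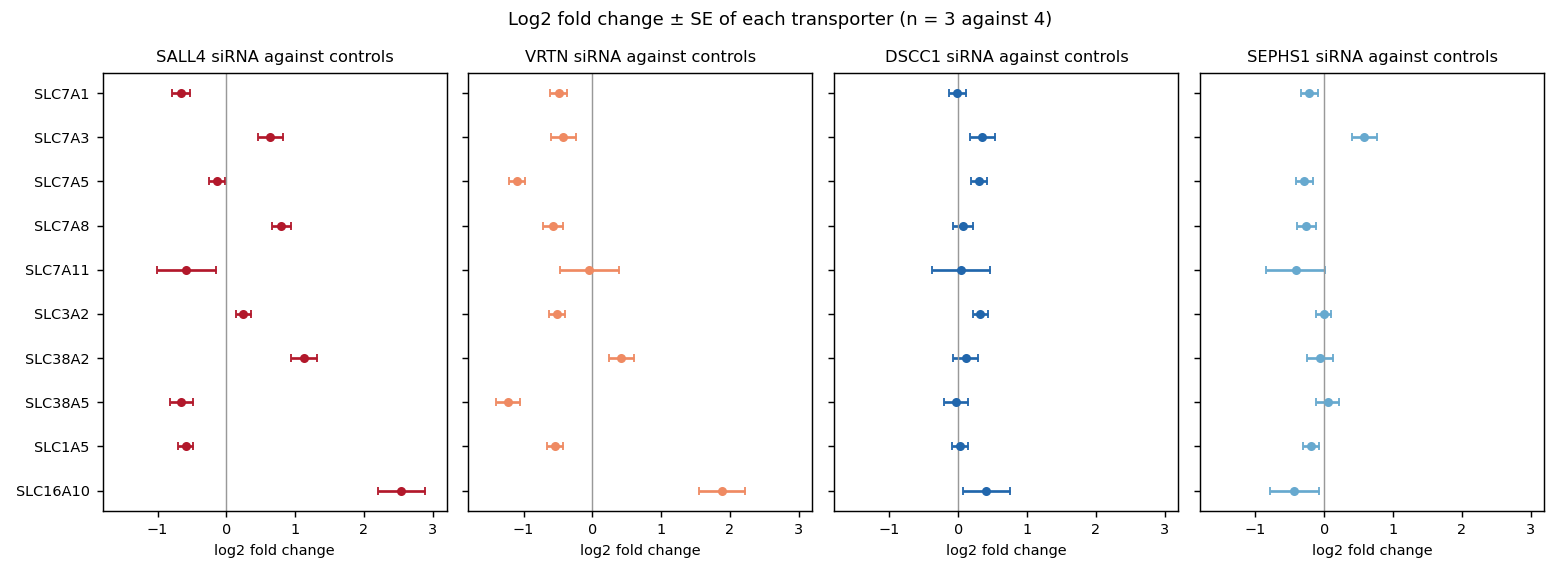
Log2 fold change of each transporter in each knockdown against the 4 control libraries, with bars of 1 SE from the quasi-likelihood fit (n = 3 against 4). SLC16A10 lies furthest right in SALL4 and VRTN libraries, at 2.55 and 1.88, while DSCC1 and SEPHS1 values stay between -0.44 and 0.58.

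The quasi-likelihood test of edgeR, with adjustment by Benjamini and Hochberg over all 19772 genes tested, called 590 in SALL4 libraries, or 2.98%, with 1.85% higher and 1.13% lower. It called 7 of the 10 transporters there: SLC16A10, SLC38A2, SLC7A8 and SLC7A3 higher, and SLC7A1, SLC1A5 and SLC38A5 lower. In VRTN libraries it called 1.13% of all genes, 0.445% higher and 0.683% lower, and 7 of the 10, with SLC16A10 higher and SLC7A5, SLC38A5, SLC1A5, SLC3A2, SLC7A8 and SLC7A1 lower. In DSCC1 libraries 0.0455% and in SEPHS1 libraries 1.53% of all genes were called. None of the 10 was called in either, by this test or by DESeq2. In each, 2 of the 10 had an unadjusted p under 0.05. Of all 19772 tested genes, 2584 in SALL4, 1859 in VRTN, 1155 in DSCC1 and 2529 in SEPHS1 libraries had such a p, the background for all such counts below. The 10 were chosen with these contrasts in view, so nothing is read from their shares. The median log2 fold change over the 10 was 0.05 in SALL4, -0.50 in VRTN, 0.09 in DSCC1 and -0.20 in SEPHS1 libraries, beside 0.02, 0.02, 0.00 and -0.02 over all tested genes. All 4 comparisons share the same control libraries.

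Some of these calls were lost when 1 library was left out, also when that library was outside the comparison. In SALL4 libraries SLC7A3 was not called without any 1 of the 3 SALL4 libraries, the 3 DSCC1 libraries, SEPHS1 replicate 2, Luciferase replicate 1 or Control replicate 1, at 0.43 to 0.94. SLC38A5 was not called there without SALL4 replicate 1 or 2, Luciferase replicate 2 or Control replicate 1, at -0.73 to -0.57. In VRTN libraries SLC7A1 was not called without any 1 of the 3 VRTN libraries, the 3 DSCC1 libraries, SALL4 replicate 2, SEPHS1 replicate 2, Luciferase replicate 1 or Control replicate 2, at -0.56 to -0.37. SLC7A8 was not called without VRTN replicate 1 or 3, any 1 of the DSCC1 libraries or SEPHS1 replicate 2, at -0.69 to -0.42. SLC3A2 was not called without VRTN replicate 1 or 2, Luciferase replicate 2 or Control replicate 2, at -0.62 to -0.44, and SLC1A5 not without VRTN replicate 2 or Control replicate 2, at -0.63 to -0.44. No called value changed sign. SLC7A3, not called in the other 3 knockdowns, was called at -0.64 and -0.58 in VRTN libraries without Luciferase or Control replicate 1, at 0.66 in DSCC1 libraries without Luciferase replicate 2, and at 0.89 and 0.79 in SEPHS1 libraries without Luciferase or Control replicate 2.

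Set directly against each other, SALL4 libraries gave a positive log2 fold change over VRTN libraries for 7 of the 10 transporters. Here 2.44% of all genes were called, 1.73% higher and 0.703% lower in SALL4 libraries, and 5 of the 10 were called higher and 0 lower. SLC7A8 stood at a log2 fold change of 1.37 (SE 0.15), SLC7A3 at 1.06 (SE 0.20), SLC7A5 at 0.96 (SE 0.13), SLC3A2 at 0.77 (SE 0.12) and SLC38A2 at 0.71 (SE 0.20). For SLC7A8, SLC7A3, SLC7A5, SLC3A2 and SLC38A5 no SALL4 library lay at or below a VRTN library. For SLC38A2, SALL4 replicate 3 fell below all 3 VRTN libraries. Neither here nor against the controls is the share of all genes that separate in this way given, so nothing is read from such separation. SLC38A2 was not called without SALL4 replicate 1 or 2 or any 1 of the VRTN, DSCC1 or SEPHS1 libraries, at 0.49 to 1.00. SLC38A5 was called without Luciferase replicate 1, at 0.57. The values for SLC7A1 at -0.17 (SE 0.13) and SLC1A5 at -0.05 (SE 0.12) were the closest to 0, and SLC16A10 at 0.66 (SE 0.36), SLC38A5 at 0.57 (SE 0.18) and SLC7A11 at -0.54 (SE 0.46) were not called. The median over the 10 was 0.68, beside 0.00 over all tested genes. This contrast was among those the members were chosen on, and SALL4 and VRTN siRNAs came from different suppliers.

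At 72 h, the log2 fold change of DSCC1 against SEPHS1 libraries was positive for 8 of the 10, with overlapping ranges for SLC7A1, SLC7A11 and SLC38A2 among them. SLC7A5 was called at 0.58 (SE 0.13), where 0.268% of all genes were called, and lost its call without any 1 of the 6 libraries compared, at 0.53 to 0.61. SLC16A10 at 0.85 (SE 0.38), SLC3A2 at 0.33 (SE 0.12), SLC7A8 at 0.33 (SE 0.15) and SLC1A5 at 0.22 (SE 0.12) were higher in every DSCC1 library than in every SEPHS1 library and were not called. SLC7A3 at -0.23 (SE 0.19) was lower in every DSCC1 library. The share of all genes that separate in this way is not given here, so nothing is read from the separation. Among all genes called, 47 were higher and 6 lower in DSCC1 libraries. The median over the 10 was 0.27, beside 0.01 over all tested genes. The mitochondrial mRNA share was 31.5 to 36.8% in DSCC1 libraries and 36.3 to 42.8% in SEPHS1 libraries. With mitochondrial mRNAs left out of the fit, the median of all genes in this comparison moved by -0.015 on the log2 scale, and SLC7A5 kept its call. Any other part of that share in these values was not tested. The DSCC1 and SEPHS1 libraries also entered the contrasts the members were chosen on, so these values too are a description.

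Ratios within a library do not depend on its scaling and set related carriers against each other. The ratio of SLC7A8 to SLC7A5, per kb of exon, was 0.826, 0.742 and 0.601 in SALL4 libraries and 0.652, 0.724 and 0.350 in VRTN libraries, against 0.447 and 0.360 in Control and 0.402 and 0.346 in Luciferase libraries. It stood above all controls in 5 of the 6 libraries of the 48 h knockdowns, VRTN replicate 3 being the exception, and in 0 of the 72 h libraries, which lay between 0.315 and 0.403. In SALL4 libraries SLC7A8 lay above the controls while SLC7A5 overlapped them, and in VRTN libraries both lay below.

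The ratio of SLC7A3 to SLC7A1 was 4.15, 4.91 and 7.53 in SALL4 libraries, 1.92, 1.64 and 3.60 in VRTN libraries, 2.92, 2.87 and 2.65 in DSCC1 libraries and 3.19, 3.96 and 4.39 in SEPHS1 libraries, against 1.75 and 2.66 in Control and 1.35 and 2.97 in Luciferase libraries. All SALL4 and all SEPHS1 libraries exceeded the highest control. The ratio of SLC38A2 to SLC38A5 was 2.24, 3.06 and 1.16 in SALL4 libraries and 1.61, 2.67 and 1.71 in VRTN libraries, against 0.537 and 0.535 in Control and 0.936 and 0.513 in Luciferase libraries. All 6 libraries of the 48 h knockdowns exceeded the highest control, and the 72 h libraries, at 0.418 to 0.844, did not. Here too harvest time and siRNA target cannot be told apart. The light chains SLC7A5, SLC7A8 and SLC7A11 together, over their heavy chain SLC3A2, gave 7.09 to 10.7 in SALL4 libraries, 6.42 to 7.54 in VRTN libraries, 8.42 to 9.12 in DSCC1 libraries and 7.54 to 7.75 in SEPHS1 libraries, against 8.60 to 10.1 in the controls. VRTN and SEPHS1 libraries lay below all controls in this ratio.

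**Figure D4:**
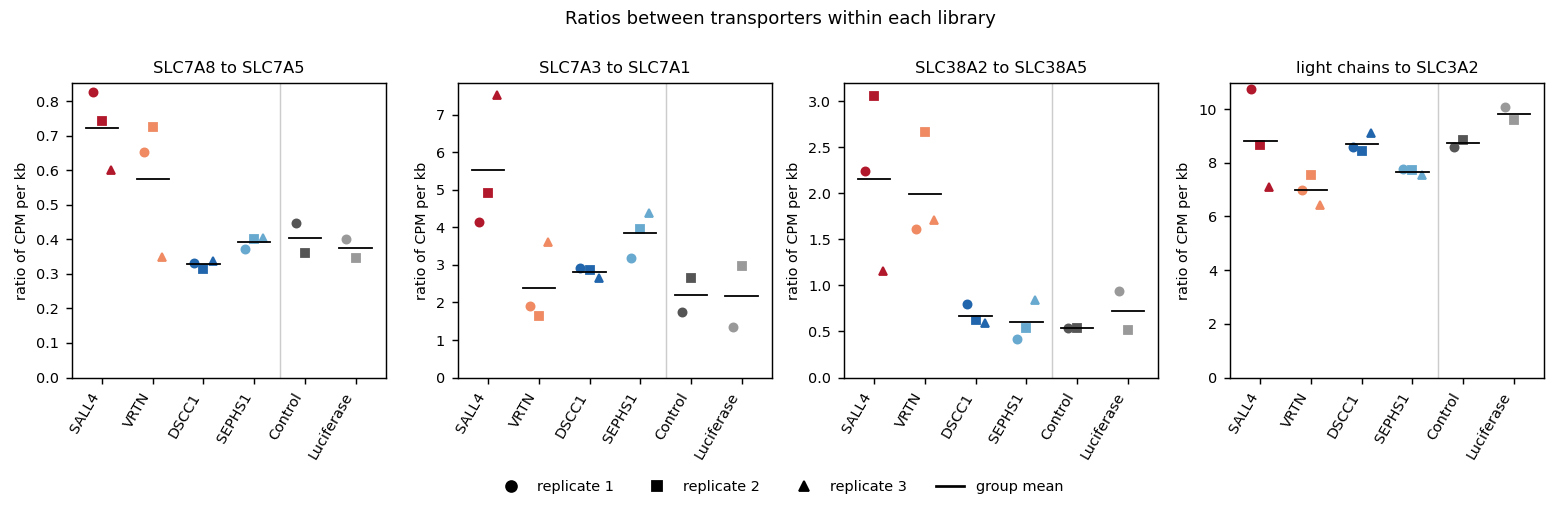
Ratios of transporter levels, each in CPM per kb of exon, within each of 16 libraries; points are libraries, shapes are replicate numbers and bars are group means. The SLC38A2 to SLC38A5 ratio lies above 0.936, the highest control, in all SALL4 and VRTN libraries, and the SLC7A3 to SLC7A1 ratio reaches 7.53 in SALL4 replicate 3.

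The Control and Luciferase siRNAs, a comparison that played no part in the choice of the 10, gave close levels. None of the 10 was called in Control against Luciferase libraries, where edgeR's quasi-likelihood test called 0% of all genes, 211 having an unadjusted p under 0.05, and DESeq2 also called 0. None of the 10 had an unadjusted p under 0.05. The largest differences were -0.33 (SE 0.24) for SLC38A2, 0.24 (SE 0.15) for SLC1A5 and 0.23 (SE 0.14) for SLC3A2. For some of the 10 the replicates of each siRNA stood further apart than the siRNAs, and for others, such as SLC7A8 at 0.09 and 0.08 between replicates and 0.14 (SE 0.18) between siRNAs, they did not. SLC7A3 was higher in replicate 2 than in replicate 1 by 0.73 on the log2 scale for Control and by 1.04 for Luciferase, and SLC7A11 by 0.61 and 0.67. Replicate 2 stood above replicate 1 under both siRNAs for 6 of the 10 and below it under both for SLC38A2, while 58.3% of 5526 well expressed genes (mean of at least 4 log2 CPM) had the same sign under both.

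Some pairs of members varied together within groups, while others varied in opposite directions or showed little relation. After the group mean was taken from each library, the heavy chain SLC3A2 and the light chain SLC7A5 had a Pearson r of 0.87 over the 16 libraries. SLC7A3 with SLC3A2 gave 0.76 and with SLC1A5 0.75, while SLC38A2 with SLC1A5 gave -0.74 and SLC7A1 with SLC16A10 -0.67. These are the highest and lowest values among all pairs of members, and SLC7A8 with SLC3A2, for instance, gave -0.03. No r of other gene pairs is given beside them. These values carry no test, and the points share library depth and the replicate differences among control and SALL4 libraries described above.

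Over the same 16 libraries, without removing group means, the genes most like SLC7A5 among the 5526 were CLUH (r 0.957), SGTA (0.906), VRTN (0.899), FOXO4 (0.896) and SYT3 (0.893). CLUH, which binds mRNAs of mitochondrial proteins, averaged 117 ± 7.79 CPM in VRTN libraries, against 182 ± 7.04 CPM in the controls (SD, n = 3 and 4). VRTN is itself the target of 1 of the siRNAs. The genes most like SLC16A10 were MXD4 (0.930), a repressor that pairs with MAX, PAFAH1B3 (0.914), ENTREP1 (0.909), PRICKLE1 (0.884) and UBE2H (0.882). MXD4 averaged 37.6 ± 4.56 CPM in SALL4 and 31.5 ± 5.31 CPM in VRTN libraries (SD, n = 3 each), against 18.9 ± 3.08 CPM in the controls (SD, n = 4). CLUH and MXD4 were picked for likeness over these same libraries, so nothing is read from their group differences.

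Of 42 other amino acid transporters, 30 passed the filter, and against the controls 2 were called, 1 higher and 1 lower in SALL4 libraries, where 1.85% and 1.13% of all tested genes were. SLC1A3 (EAAT1), a sodium-coupled glutamate carrier of astrocytes, had 44.9, 39.8 and 3.79 CPM in SALL4 libraries and 10.4, 10.4 and 4.93 CPM in VRTN libraries, against 3.85 and 3.88 CPM in Control and 5.19 and 2.64 CPM in Luciferase libraries. It was raised in SALL4 replicates 1 and 2, while replicate 3 lay within the controls. The log2 fold change in SALL4 libraries was 2.92 (SE 0.46, adjusted p = 0.000143, edgeR's quasi-likelihood test). SLC43A1 (LAT3), a leucine carrier that needs no heavy chain, fell to 4.35, 3.37 and 13.5 CPM in SALL4 libraries, against 25.7 and 28.1 CPM in Control and 17.7 and 26.0 CPM in Luciferase libraries. All SALL4 libraries lay below all controls, replicate 3 again closest, at -1.79 on the log2 scale (SE 0.31, adjusted p = 0.000549, same test). Without SALL4 replicate 3 the SLC43A1 value was -2.63, and over all alternatives it ran between -2.63 and -1.44 and kept its call.

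**Figure D5:**
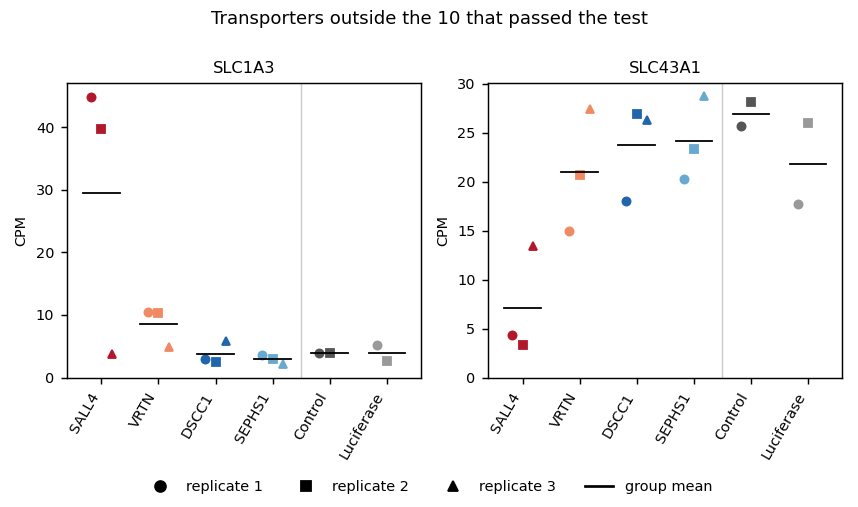
Level in CPM of SLC1A3 and SLC43A1, the transporters outside the 10 that passed the test in SALL4 libraries, in each of 16 libraries, with shapes for replicate numbers and bars for group means. SALL4 replicates 1 and 2 stand apart from the controls in both panels, and replicate 3 lies at 3.79 CPM for SLC1A3, within the controls.

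Both genes were also called between the 48 h knockdowns, SLC43A1 lower in SALL4 than in VRTN libraries at -1.58 (SE 0.33, adjusted p = 0.00354, edgeR's quasi-likelihood test) and SLC1A3 higher at 1.78 (SE 0.49, adjusted p = 0.0420, same test). The SLC1A3 call was lost without SALL4 replicate 1 or 2, any 1 VRTN library, DSCC1 replicate 1 or 2 or SEPHS1 replicate 2, with values of 1.35 to 2.32 over all alternatives and an adjusted p of up to 0.368. No other transporter outside the 10 was called in the SALL4 or VRTN comparisons. In DSCC1, SEPHS1 and VRTN libraries against the controls the count of the 30 was 0, with 2, 3 and 3 at an unadjusted p under 0.05, and DESeq2 called 1 lower in SEPHS1 libraries. In SALL4 libraries 3 of the 30 had an unadjusted p under 0.05. The median log2 fold change over the 30 was -0.03 in SALL4 and -0.17 in VRTN libraries, beside 0.02 over all tested genes in each.

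The genes that respond to amino acid shortage were mostly not called. Of 28 such genes, among them targets of ATF4, 26 were tested and 2 fell in SALL4 libraries, where 1.13% of all tested genes were called lower. PCK2, the mitochondrial enzyme that makes phosphoenolpyruvate, had 11.4, 12.6 and 15.7 CPM in SALL4 libraries, against 33.6 and 35.2 CPM in Control and 28.9 and 38.3 CPM in Luciferase libraries, or -1.36 on the log2 scale (SE 0.22, adjusted p = 0.000210, edgeR's quasi-likelihood test). PSAT1, an aminotransferase of serine synthesis, had 98.5, 118 and 141 CPM in SALL4 libraries, against 182 and 165 CPM in Control and 155 and 183 CPM in Luciferase libraries, at -0.52 (SE 0.13, adjusted p = 0.0143, same test). Every SALL4 library lay below every control for both. PSAT1 was called in 20 of 25 alternatives, with an adjusted p of up to 0.156 (edgeR), and lost the call without SALL4 replicate 1 or 2, with Control or Luciferase alone and with replicate 1 of both controls. PSAT1 was lower in SALL4 than in VRTN libraries too, at -0.57 (SE 0.13, adjusted p = 0.0129, edgeR), a call lost without SALL4 or VRTN replicate 1 or 2, with an adjusted p of up to 0.143. In SALL4 libraries 9 of the 26 had an unadjusted p under 0.05 against the controls, beside 2584 of all 19772 tested genes. Between SALL4 and VRTN libraries 8 of the 26 had one, beside 2428 of all tested genes. In VRTN, DSCC1 and SEPHS1 libraries 0 of the 26 were called by edgeR, with 2, 1 and 6 at an unadjusted p under 0.05, and DESeq2 called 1 lower in VRTN libraries. The median over the 26 was -0.31 in SALL4, -0.07 in VRTN, -0.13 in DSCC1 and 0.01 in SEPHS1 libraries.

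Genes that sense amino acids gave few calls. Of 35 genes of the mTORC1 and GCN2 sensing pathways, which include the RRAG GTPases, the LAMTOR scaffold and the GATOR subunits, 35 were tested and 0 were called by edgeR in any comparison. At an unadjusted p under 0.05 there were 6 in SALL4, 1 in VRTN, 1 in DSCC1 and 5 in SEPHS1 libraries against the controls, and DESeq2 called 1 lower in SALL4 and 1 higher in VRTN libraries. Of the 20 cytosolic aminoacyl-tRNA synthetases, which load amino acids onto tRNAs, AARS1 fell in SALL4 libraries, at 75.0, 71.8 and 80.9 CPM against 99.9 and 114 CPM in Control and 91.6 and 114 CPM in Luciferase libraries. Its log2 fold change was -0.47 (SE 0.13, adjusted p = 0.0381, edgeR's quasi-likelihood test). SARS1 rose in SEPHS1 libraries, at 58.8, 62.0 and 55.3 CPM against 42.3 and 36.6 CPM in Control and 40.9 and 41.3 CPM in Luciferase libraries, with 0.55 (SE 0.14, adjusted p = 0.0434, same test). Neither group overlapped its controls. AARS1 was called in 13 of 25 alternatives, with an adjusted p of up to 0.544, and SARS1 in 8 of 25, with up to 0.228. AARS1 lost the call without SALL4 replicate 1 or 2, Luciferase replicate 2, Control replicate 2, any 1 DSCC1 library or VRTN replicate 1, and SARS1 without any 1 SEPHS1, DSCC1, Control or Luciferase library, SALL4 replicate 2 or VRTN replicate 1. In VRTN and DSCC1 libraries 0 of the 20 were called by edgeR, with 1 and 4 at an unadjusted p under 0.05, and DESeq2 also called 0 there. In SALL4 and SEPHS1 libraries 5 and 6 of the 20 had an unadjusted p under 0.05. Between DSCC1 and SEPHS1 libraries edgeR called 0 genes of the transporter, response, sensing and synthetase lists, with 3, 3, 7 and 0 at an unadjusted p under 0.05, and DESeq2 called 1 transporter higher. Between Control and Luciferase libraries both tools called 0 genes of these lists, and 1 response gene had an unadjusted p under 0.05.

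Summed markers listed for other cell types also differed between the groups, and their part in the transporter values was not tested. A sum follows its most abundant genes and does not by itself measure a cell type. The summed level of 8 fibroblast and mesenchyme markers was 799 to 1714 CPM in SALL4 and 796 to 1208 CPM in VRTN libraries, against 1829 to 2066 CPM in the controls, with 6 of 8 tested and 1 called lower in each knockdown. The sum of 8 neural markers was 83.4 to 96.1 CPM in SALL4 and 129.8 to 137 CPM in VRTN libraries, against 127 to 138 CPM in the controls, with 5 of 8 tested and 1 called lower in SALL4 libraries. The sum of 8 primitive streak and endoderm markers was 15.1 to 17.5 CPM in SALL4 and 20.02 to 30.7 CPM in VRTN libraries, against 9.36 to 14.4 CPM in the controls, with 8 of 8 tested and 0 called by edgeR against the controls. The sum of 8 trophoblast markers, of which CGA is listed at 0 everywhere, was 1.63 to 3.74 CPM in SALL4 and 2.38 to 4.65 CPM in VRTN libraries, against 3.76 to 5.57 CPM in the controls, with 4 of 8 tested and 1 called lower in SALL4 libraries. The 8 pluripotency markers summed to 2409 to 2840 CPM in SALL4 and 3410 to 3618 CPM in VRTN libraries, against 2844 to 3510 CPM in the controls, with 1 called lower in SALL4 and 1 called higher in VRTN libraries. In SALL4 against VRTN libraries 3 pluripotency, 1 neural and 1 primitive streak and endoderm marker were called lower, and none of the 5 lists had a marker called higher. In DSCC1 and SEPHS1 libraries no marker was called against the controls by edgeR. The fibroblast and mesenchyme sums there were 1968 to 2217 and 1555 to 1839 CPM, and the neural sums 140.6 to 145 and 96.8 to 134 CPM. Primitive streak and endoderm sums were 11.5 to 15.7 and 9.93 to 14.5 CPM. Trophoblast sums were 2.87 to 6.14 and 4.67 to 7.72 CPM, and pluripotency sums 3349 to 3448 and 3485 to 3559 CPM.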

How the data were processed

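The deposited table holds raw counts of reads per gene, which per the submitters' processing notes came from STAR 2.4.0.1 and HTSeq 0.9.1 with the GRCh38 build; the strand setting, the treatment of reads shared between gene copies and the annotation release are not given in the sources used here. The labels describe poly(A) selection and a Lexogen SENSE library kit, read as single ends on an Illumina NextSeq. All values are whole numbers, over 60675 identifiers in 16 libraries. Names came from a gene name table for 56558 identifiers and from GENCODE release 29 for 497, which also gave positions and the exon lengths behind CPM per kb. All 16 libraries entered 1 fit with 6 groups in edgeR 4.0.16 (R 4.3.3) with TMM normalisation and filterByExpr, which kept 19772 genes. The quasi-likelihood test called a gene at a Benjamini-Hochberg adjusted p under 0.05 over these genes. Each knockdown was set against the equally weighted mean of the Control and Luciferase groups, and an SE is the size of the log2 fold change over the square root of its F statistic. CPM are TMM-scaled. The fit was tested on simulated data. Reads carry no molecular identifiers, so the floor of 3 counts, 0.105 to 0.161 CPM, covers counting error only.

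The members and gene lists were chosen with earlier results of these data known. Named genes are the 10 members, up to 3 called genes with the smallest p of each list and comparison (up to 6 for other transporters), the 4 targets, and the 5 genes most like SLC7A5 and SLC16A10 by Pearson r. Alternatives were DESeq2 size factors, no filter, DESeq2 1.42.0, a replicate block, Control or Luciferase alone, replicate 1 or 2 of both controls, and each library left out. Leaving out mitochondrial mRNAs was added after the data were seen. A result on 1 item is not reported here.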

Additional observations from a re-analysis of the deposited data

Results flagged for a closer look

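SLC16A10 in the 4 control libraries had 3.06 and 1.97 CPM under the Control siRNA and 2.93 and 2.96 CPM under the Luciferase siRNA. Control replicate 2 lay far below the other 3 libraries, and its gap to the nearest of them was 0.879 of the whole range. Among the 10 transporters this was the single such case in the controls, and chance gives about 1 in 20 groups. The library rests on 58 counts of SLC16A10.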

How the results depend on the processing

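Of 20 called transporter values, 10 were called under every alternative run and 10 lost the call under at least 1, and 0 changed sign. Another scaling moved the median of all genes by at most 0.03 on the log2 scale. Beside the losses on leaving out a library, given in the report, the following calls were lost. Luciferase alone as the reference ended those of SLC7A3, SLC38A5 and SLC1A5 in SALL4 libraries and of SLC7A1, SLC7A8, SLC3A2, SLC1A5 and SLC16A10 in VRTN libraries. Control alone ended those of SLC7A3 and SLC38A5 in SALL4 and of SLC7A1 and SLC7A8 in VRTN libraries. Replicate 1 of both controls ended those of SLC38A5 and SLC1A5 in SALL4 and of SLC7A1, SLC3A2 and SLC1A5 in VRTN libraries, and replicate 2 those of SLC7A3 in SALL4 and SLC7A1 in VRTN libraries. DESeq2 did not call SLC7A3 in SALL4 or SLC7A8 in VRTN libraries, and the replicate block ended the call of SLC7A1 in VRTN libraries. SLC7A3 gained a call with replicate 1 of both controls at 0.86 in DSCC1 and 1.09 in SEPHS1 libraries, with replicate 2 at -0.80 in VRTN libraries and with no filter at 0.59 in SEPHS1 libraries. SLC38A5 gained one in SALL4 against VRTN libraries at 0.57 with no filter and 0.57 with the replicate block.

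The count of genes called over the whole table moved more. For SALL4 against the controls it was 590, and 236 with Luciferase alone, 280 with Control alone and 342 with replicate 1 of both controls; leaving out 1 library each gave 275 to 924. For VRTN it was 223, and 397 with no filter, 392 with DESeq2, 89 with Luciferase alone and 95 with Control alone; leaving out 1 library gave 135 to 341. For DSCC1 it was 9, and 99 with no filter, 47 with DESeq2, 2 with Luciferase alone, 2 with Control alone, 109 with replicate 1 and 4 with replicate 2 of both controls; leaving out 1 library gave 2 to 98. For SEPHS1 it was 303, and 516 with no filter, 519 with DESeq2, 128 with Luciferase alone, 103 with Control alone and 137 with replicate 2 of both controls; leaving out 1 library gave 135 to 472. For SALL4 against VRTN it was 482, and 726 with no filter, with 248 to 879 on leaving out 1 library. For DSCC1 against SEPHS1 it was 53, and 151 with no filter and 188 with DESeq2, with 22 to 128 on leaving out 1 library. For Control against Luciferase it was 0, and leaving out 1 library gave 0 to 1. References of 1 siRNA or 1 replicate number have fewer samples; otherwise the cause was not tested.

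Likeness of same-numbered libraries was uneven. Of 36 such pairs, 9 had deviations from the group means correlated above 0.1, with a range of -0.316 to 0.363 over 5526 genes. The highest were SALL4 with VRTN replicate 3 at 0.363 and Control with Luciferase at 0.338. With 2 replicates per control siRNA the deviations mirror each other, so the latter r is the same for both replicate numbers. These values do not decide whether the numbers pair the samples, and the main fit used groups only. With the replicate block the counts were 820 for SALL4, 283 for VRTN, 15 for DSCC1, 270 for SEPHS1, 686 for SALL4 against VRTN, 147 for DSCC1 against SEPHS1 and 0 for Control against Luciferase. Depth limits SLC7A11 and SLC16A10 most.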
